A study of Mus musculus with 3 samples.

Results

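Capillary endothelial cells of the mouse dorsal root ganglion were taken here as the 88 of 9662 cells that met a rule on UMI counts (UMI, a unique molecular identifier, counts 1 captured transcript). Cells with fewer than 500 genes or over 20% mitochondrial UMIs were left out. A member held a UMI of at least 3 of the 6 endothelial genes Pecam1, Cldn5, Cdh5, Flt1, Emcn and Ly6c1 and of at least 1 of the 3 genes Car4, Slco1a4 and Abcg2, and held no UMI of Sema3g, Bmx, Vwf or Selp, which mark arteries and veins. The genes Rgs5, Kcnj8 and Myh11 (mural cells), Snap25 and Rbfox3 (neurons) and Mag and Prx (myelinating Schwann cells) were limited to 1 UMI per set, and Csf1r and C1qa (macrophages) to 0. Members were therefore chosen on measured values, and the genes of the rule are given below as a description.

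The study sequenced single cells of lumbar dorsal root ganglia (L3 and L4, both sides) from male C57BL/6J mice at 13 weeks of age, with the 10x Genomics 3′ kit (v3). The naive library came from untreated mice, and the other libraries came from mice 7 or 14 days after double-sided spared nerve injury, a surgical model of neuropathic pain in which branches of the sciatic nerve are cut. Each condition was 1 library from 2 pooled mice (8 ganglia), so condition, mice, dissociation and library cannot be told apart, no test between conditions was possible, and every interval below is a 95% interval that covers counting error only. After the cell filter the naive, day 7 and day 14 libraries held 3152, 2682 and 3828 cells with medians of 3072, 4010.5 and 4199 UMIs. Female and male transcripts matched the labels, with 3, 3 and 13 UMIs of Xist against 2968, 3390 and 5545 of the Y-linked genes Ddx3y and Eif2s3y, and the libraries shared 9 cell barcodes, none of them a member's.

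Capillaries are the vessels through which blood exchanges nutrients and waste with tissue. In brain and nerve their endothelium is sealed by tight junctions and carries selective transporters, a state kept by Wnt signalling, whereas vessels around the cell bodies of the dorsal root ganglion are known to be more permeable. Endothelial cells also carry the receptors for interferons and present class I antigens to passing lymphocytes.

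The naive library held 44 members among 3152 cells, which is 1.40% (exact Clopper-Pearson interval 1.02 to 1.87). The day 7 library held 21 members among 2682 cells, or 0.783% (0.485 to 1.19). The day 14 library held 23 members among 3828 cells, or 0.601% (0.381 to 0.900). The naive share was the highest, and its interval overlapped that of day 7 but not that of day 14. Over all cells with endothelial genes that met the limits on other cell types, members were 15.6% (11.6 to 20.4) of 282 naive cells, 10.9% (6.86 to 16.2) of 193 day 7 cells and 7.67% (4.92 to 11.3) of 300 day 14 cells.

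These shares moved with sequencing depth. Members were 28.8% of the 111 endothelial cells with fewer than 2000 UMIs, 18.5% of 227 with 2000 to 4000, 5.45% of 202 with 4000 to 8000, and 1.28% of 235 with 8000 or more. A shallow cell more often had 0 UMIs of the arterial and venous genes, as the plot of depth against those UMIs shows, and the injured libraries were the deeper ones. When each cell was thinned to 2000 UMIs before the rule was applied, the shares were 2.62% (2.01 to 3.35), 1.83% (1.32 to 2.46) and 1.83% (1.41 to 2.34) of the cells deep enough to be thinned. The naive share was still the highest there, but its interval overlapped those of both injured libraries.

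**Figure D1:**
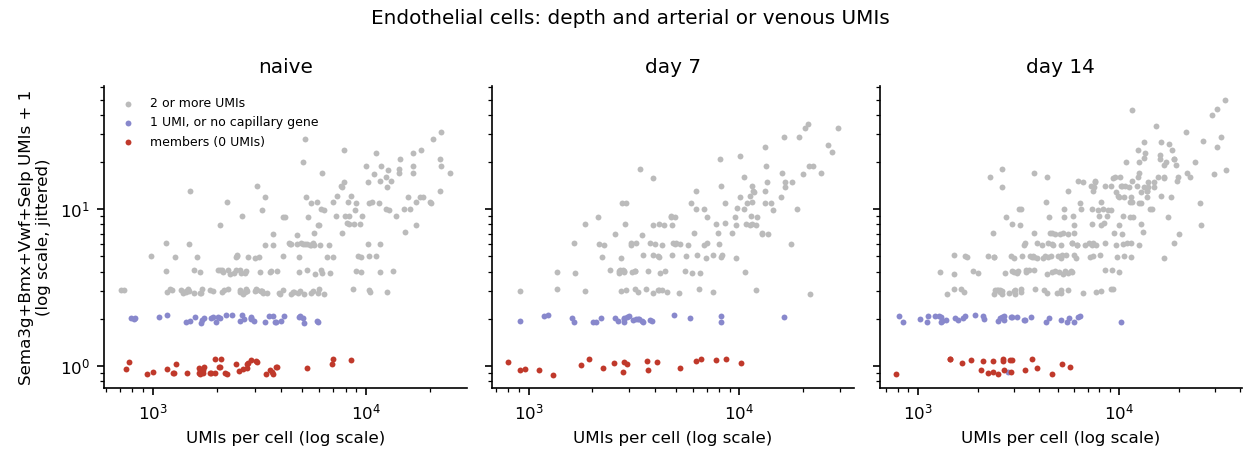
Each point is an endothelial cell of the naive, day 7 or day 14 library, with its UMIs on the x axis (log scale) and its summed Sema3g, Bmx, Vwf and Selp UMIs plus 1 on the y axis (log scale, jittered). Members (red) lie on the bottom line, at 744 to 8464 UMIs in the naive library, and the arterial and venous UMIs climb with depth in all 3 libraries.

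The step on Car4, Slco1a4 and Abcg2 removed few cells. Of the 775 endothelial cells that met the limits on other cell types, 766 (98.8%) held a UMI of at least 1 of these 3 genes, and 88 of those had 0 arterial and venous UMIs. Just outside this threshold were 102 cells with exactly 1 such UMI (median 2676 UMIs per cell), and a further 576 had 2 or more. At the other edges, 3 members held exactly 3 of the 6 endothelial genes, 3 otherwise matching cells held only 2 of them, and 1 member held a single UMI of the 3 capillary genes. The members are thus endothelial cells in which no arterial or venous transcript was captured, and the endothelial cells with 2 or more such UMIs (200, 144 and 238 cells), called arteriovenous-gene cells here, serve as the comparison below.

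Members had medians of 2071.5, 2845 and 2658 UMIs in the naive, day 7 and day 14 libraries. Their summed UMIs were 114243, 78109 and 64296, so that a single UMI was worth 8.75, 12.8 and 15.6 counts per 1000000 UMIs (CPM). The arteriovenous-gene cells had medians of 5244, 6243 and 7367 UMIs and sums of 1363016, 1182992 and 2140054. Member values therefore rest on far fewer molecules, and their intervals are wider throughout. The median mitochondrial share of members was 5.97%, 7.89% and 8.85%, highest at day 14.

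Among the genes of the rule, Pecam1, an adhesion molecule between endothelial cells, was at 972, 691 and 575 CPM in the naive, day 7 and day 14 members. Cldn5, the main endothelial tight junction claudin, was at 2433, 1997 and 1291 CPM. Slco1a4, an organic anion transporter of brain endothelium, was at 2276, 2356 and 2628 CPM. Pecam1 and Cldn5 were lowest at day 14, but the Pecam1 intervals of day 7 (519 to 902) and day 14 (405 to 793) overlapped. Slco1a4 was highest at day 14 within overlapping intervals. Members held Slco1a4 in 80 of 88 cells (90.9%) and Car4, a membrane carbonic anhydrase of capillaries, in 41 (46.6%), and 38 members (43.2%) held Car4, Slco1a4 and Abcg2 together. Arteriovenous-gene cells had close shares, at 92.1% for Slco1a4 and 48.6% for Car4, so these shares did not set members apart from them. In myelinating Schwann-type cells (4221 cells with at least 2 UMIs of Mag and Prx), which should lack these genes, the same shares were 1.33% for Slco1a4 and 0.142% for Car4. Thinned to 2000 UMIs, 91.1% of 56 members, 85.7% of 538 arteriovenous-gene cells and 0.644% of 3569 Schwann-type cells held Slco1a4. Members were chosen on this gene. For Car4 the thinned shares were 42.9% of members and 30.9% of arteriovenous-gene cells, with overlapping intervals.

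Genes outside the rule gave the members an endothelial profile. All 20 genes of a list of endothelial identity were detected, among them Kdr, the main receptor for VEGF, at 858, 845 and 1120 CPM, and Egfl7, a secreted endothelial protein, at 1908, 1203 and 1306 CPM. The leading genes of members over all other cells were Akr1c14, C130074G19Rik, Cxcl12, Thrsp, Slc7a5, Prom1, Cyyr1, Kdr, Igfbp7, Ctla2a, Egfl7, Plvap, Calcrl, Robo4, Ctgf, Sema7a, Esam, Cd300lg, Adgrl4 and Nxpe2. Cxcl12, a chemokine, stood at 2782 CPM in members against 203 in all other cells and 2275 in arteriovenous-gene cells. Akr1c14, a steroid-metabolising reductase, stood at 347, 16.2 and 183 CPM in the same 3 populations. Most of the leading genes thus had levels in arteriovenous-gene cells much nearer to the members' than to those of all other cells.

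The distinction between members and arteriovenous-gene cells was one of degree and differed by library. The summed level of 17 capillary genes outside the rule was 16780 CPM in naive members against 11860.5 in naive arteriovenous-gene cells, and 14736 against 12291 at day 7. At day 14 the values were 11680 (10860 to 12547) and 11563 (11419 to 11708), with overlapping intervals. With the libraries pooled, which carry different weights in the 2 populations, the log2 ratio was 0.33. The sum of these genes therefore set members apart in the naive and day 7 libraries and not detectably at day 14. Slc2a1, a glucose transporter of the same list, was not found in a larger share of members. Thinned to 2000 UMIs and pooled over libraries, 41.1% of members and 54.1% of arteriovenous-gene cells held it, with overlapping intervals. Arterial genes outside the rule were lower in members of each library, at 849, 461 and 607 CPM against 1199, 1587 and 1375. Venous genes outside the rule were at 709, 551 and 684 CPM against 1032, 908 and 900, with overlapping intervals at day 14. Spock2, a matrix proteoglycan of barrier endothelium, was at 6810, 5262 and 5210 CPM in members, and Mfsd2a, a lipid transporter that limits transcytosis, at 1190, 845 and 824 CPM. Fabp4, a fatty acid binding protein of capillaries in other organs, had 0 UMIs in all 3 libraries, where 3 UMIs would be 26.3, 38.4 and 46.7 CPM. Of 8 tested arterial genes 2 were higher and 5 lower at day 7, and 1 was higher and 2 lower at day 14, by the 2-fold measure defined below. Over all 6335 tested genes the shares were 12.7% higher and 12.3% lower at day 7, and 13.1% and 14.4% at day 14. Of 7 lymphatic endothelial genes, 3 had UMIs, and Flt4 supplied 90% of the list's UMIs, at 70.1 CPM over all members. The other 4 had 0 UMIs, among them Prox1, the lymphatic transcription factor, and Lyve1, a hyaluronan receptor.

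**Figure D2:**
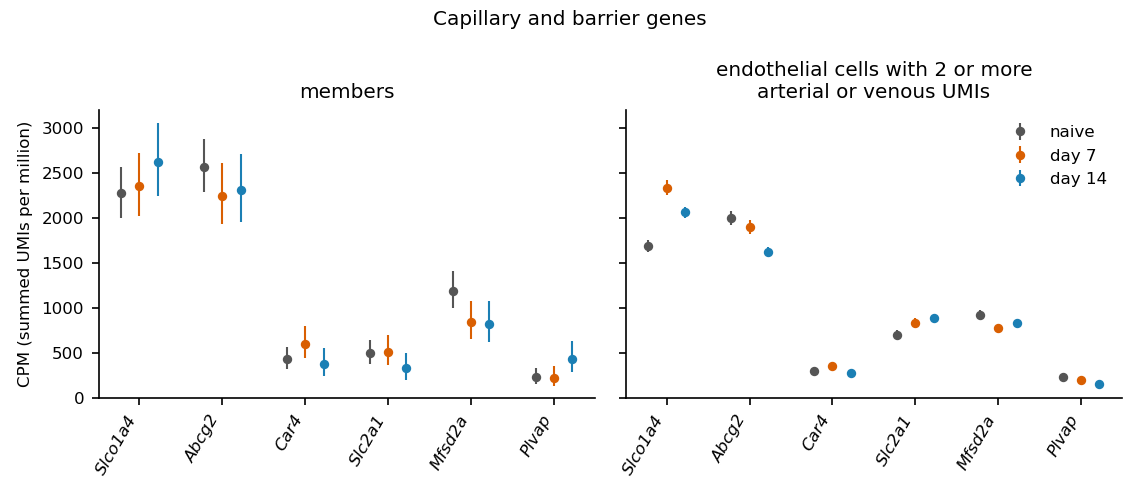
CPM of summed UMIs (y axis) for 6 capillary and barrier genes in members (left) and in endothelial cells with 2 or more arterial or venous UMIs (right), with a point and exact Poisson 95% interval per library. Slco1a4 and Abcg2 are members' genes by rule, and Mfsd2a was highest in the naive members at 1190 CPM.

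Capillary genes outside the rule were lower in sum at day 14, and their lower sum at day 7 rested on 2 members that also held many glial transcripts. Spock2 supplied 39.9% of the list's UMIs. Their summed level was 16780 CPM in naive members, 14736 at day 7 and 11680 at day 14. The log2 ratio to naive was -0.19 (exact conditional binomial interval -0.29 to -0.08) at day 7 and -0.52 (-0.65 to -0.40) at day 14. Without the members with 5 or more UMIs of Fabp7, a glial gene (the setting left out the 2 day 7 members described with the glial markers below), the day 7 ratio was -0.0045. In arteriovenous-gene cells the ratios were 0.05 and -0.04. For single genes, a difference is counted below when it was at least 2-fold on the log2(CPM + 10) scale, among 6335 genes detected in at least 10% of members of at least 1 library. The medians of lists and the single-gene ratios of arteriovenous-gene cells are on the same scale, while a member ratio printed with an interval is that of the CPM without the pseudocount, so a gene just past 2-fold on one scale can miss it on the other. Of these 6335 genes, 12.7% were at least 2-fold higher and 12.3% at least 2-fold lower at day 7, and 13.1% higher and 14.4% lower at day 14. The counts of every gene list are to be read beside these background shares. The list of capillary genes had 13 tested genes, of which 0 were higher and 1 lower at each time, a smaller share than the background. Their median log2 ratio was 0.02 at day 7 and -0.52 at day 14, so at day 7 the middle of the list was near 0.

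At day 14 the gene counted was Cxcl12. Its members' UMIs were 367 in the naive, 256 in the day 7 and 91 in the day 14 library, or 3212, 3277 and 1415 CPM. Day 14 alone was low. The log2 ratio was 0.03 (-0.21 to 0.26) at day 7 and -1.18 (-1.53 to -0.85) at day 14, while arteriovenous-gene cells had ratios of 0.35 and 0.33. Slc7a5, a transporter of large neutral amino acids, had 243, 147 and 84 UMIs, or 2127, 1882 and 1306 CPM, with a log2 ratio of -0.70 (-1.08 to -0.34) at day 14.

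Barrier transporters were close in sum at day 7 and lower at day 14. Their summed level was 11020, 10959 and 9705 CPM, and the log2 ratio to naive was -0.01 (-0.14 to 0.12) at day 7 and -0.18 (-0.32 to -0.04) at day 14. Without the members with 5 or more Fabp7 UMIs the day 7 ratio was 0.17. Of 15 tested genes, 0 were higher and 1 lower at day 7, and 1 was higher and 0 lower at day 14. The median log2 ratio of the tested genes was 0.03 at day 7 and -0.52 at day 14. The gene higher at day 14 was Slc6a6, the taurine transporter, with 32, 27 and 72 UMIs or 280, 346 and 1120 CPM. Its log2 ratio at day 14 was 2.00 (1.38 to 2.65) without the pseudocount, and in arteriovenous-gene cells it was 1.05 on the pseudocount scale. The UMIs came from 15 of 44 naive, 6 of 21 day 7 and 12 of 23 day 14 members.

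Slc2a1, the glucose transporter of barrier endothelium, was at 499, 512 and 327 CPM, with a lower value at day 14 that did not reach 2-fold. Tight and adherens junction genes had 12 tested members, of which 1 was lower and 0 higher at each time, and their summed log2 ratios were -0.12 at day 7 and -0.17 at day 14. None of the 9 tested genes for fenestrations and caveolae passed 2-fold. Plvap, the diaphragm protein of fenestrated capillaries, had 26, 17 and 28 UMIs or 228, 218 and 435 CPM, with a log2 ratio of 0.94 (0.11 to 1.76) at day 14. Of the 28 UMIs at day 14, 9 lay in 1 member. A Plvap UMI was found in 25%, 38.1% and 52.2% of members. After thinning to 2000 UMIs the shares were 37.5% of 24, 21.4% of 14 and 50% of 18 members, so no order of the libraries is read from them, and in Schwann-type cells the unthinned share was 0.213%.

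Members with and without Plvap differed in other barrier genes when all libraries were pooled. The 31 members with a Plvap UMI had 177 CPM of Slc2a1 against 683 CPM in the 57 members without, and 1784 against 3571 CPM of Cxcl12. Slco1a4, a gene on which members were chosen, was at 1713 against 2922 CPM. The direction was the same in each library for these 3 genes. Median depth with against without Plvap was 3630 against 1864 UMIs in naive, 2828 against 2916 in day 7 and 2604 against 2658 in day 14 members. How far the rule and depth set the Slco1a4 difference was not tested, so it is given as a description. Both day 7 members with many glial transcripts held Plvap. Without the members with 5 or more Fabp7 UMIs, Slco1a4 was at 2078 against 3161 CPM, Cxcl12 at 2267 against 4469 CPM and Slc2a1 at 252 against 719 CPM at day 7, in the same direction. For Kdr it turned, with 779 against 911 CPM in naive and 1608 against 543 CPM in day 14 members, and for Mfsd2a, with 1364 against 1073 CPM in naive and 546 against 1154 CPM in day 14 members. Split by Car4, the 41 members with it had 1151 CPM of Mfsd2a against 786 CPM in the others, higher in each library. The intervals were apart in the naive library and overlapped at day 7 and day 14. Median depth with against without Car4 was 2609 against 1950 UMIs in naive, 3669 against 1776 in day 7 and 2516 against 2895.5 in day 14 members. Cxcl12 in members with against without Car4 was at 3074 against 3368 CPM in naive, 3427 against 2924 at day 7 and 982 against 1808 at day 14, with no single direction.

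In the Wnt and barrier programme, 15 genes were tested, with 0 higher and 1 lower at each time. Axin2, a feedback target of Wnt signalling, had 35, 9 and 14 UMIs, with log2 ratios of -1.41 (-2.65 to -0.33) at day 7 and -0.49 (-1.50 to 0.44) at day 14. Fzd4, the receptor for norrin in barrier endothelium, had 50, 34 and 14 UMIs and a log2 ratio of -1.01 (-1.98 to -0.13) at day 14. Axin2 was the gene counted at day 7. Fzd4 was at -0.98 on the scale of the counts and was not counted, and the gene counted at day 14 was Lrp5, a Wnt co-receptor with 7, 5 and 1 UMIs. The summed list had log2 ratios of -0.34 and -0.43 in members, with -0.17 at day 7 without the members with 5 or more Fabp7 UMIs, and of -0.04 and -0.01 in arteriovenous-gene cells.

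Angiogenic signalling genes were counted in both directions, and in the first list below at shares near or under the background given above. Of 19 tested genes for VEGF, angiopoietin and Notch signalling, 2 were higher and 2 lower at day 7, and 1 was higher and 3 lower at day 14. Dll4, a Notch ligand, had 27, 6 and 6 UMIs, with log2 ratios of -1.62 (-3.19 to -0.32) and -1.34 (-2.91 to -0.03). Nrp2, a coreceptor for VEGF and semaphorins, had 7, 13 and 14 UMIs, with log2 ratios of 1.44 (0.01 to 3.01) and 1.83 (0.42 to 3.38). Among 10 tested tip cell and sprouting genes, 3 were higher and 2 lower at day 7, and 2 were higher and 2 lower at day 14.

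Pdgfb, the growth factor by which endothelium recruits pericytes, had 28, 37 and 39 UMIs or 245, 474 and 607 CPM. It was higher in both injured libraries, with log2 ratios of 0.95 (0.20 to 1.71) and 1.31 (0.57 to 2.06), and arteriovenous-gene cells had 0.22 and 0.52 on the pseudocount scale. S1pr1, a sphingosine 1-phosphate receptor that stabilises endothelial junctions, had 50, 14 and 9 UMIs or 438, 179 and 140 CPM. It was lower in both, with log2 ratios of -1.29 (-2.26 to -0.41) and -1.64 (-2.85 to -0.61), against 0.24 and 0.03 in arteriovenous-gene cells. The 6 tested flow-responsive genes, S1pr1 among them, held 3 lower genes at day 7 and 1 at day 14, and none higher. Of all tested genes 12.3% were lower at day 7 and 14.4% at day 14.

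Interferon-response genes were lower in the members of both injured libraries. Of 23 tested genes, 15 were at least 2-fold lower and 0 higher at day 7, and 17 were lower and 0 higher at day 14, against the 12.3% and 14.4% of all tested genes given above. The median log2 ratio of the tested genes was -1.36 and -1.39, while the median over all 6335 genes was -0.01 at day 7 and 0 at day 14. Rtp4, at 0 UMIs at day 7, could be set at its bound without moving the list's median. Their summed level was 12106 CPM (1383 UMIs) in naive members, 6465 CPM (505 UMIs) at day 7 and 6392 CPM (411 UMIs) at day 14. The log2 ratio was -0.90 (-1.05 to -0.76) at day 7 and -0.92 (-1.08 to -0.76) at day 14. Arteriovenous-gene cells had 11269, 8757 and 8122 CPM, with log2 ratios of -0.36 and -0.47, so the naive levels of both populations were close and the injured levels of members were lower. Schwann-type cells had log2 ratios of -0.85 and -0.88, and all cells other than members -0.45 and -0.61, so lower values after injury were also found outside the endothelium.

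**Figure D3:**
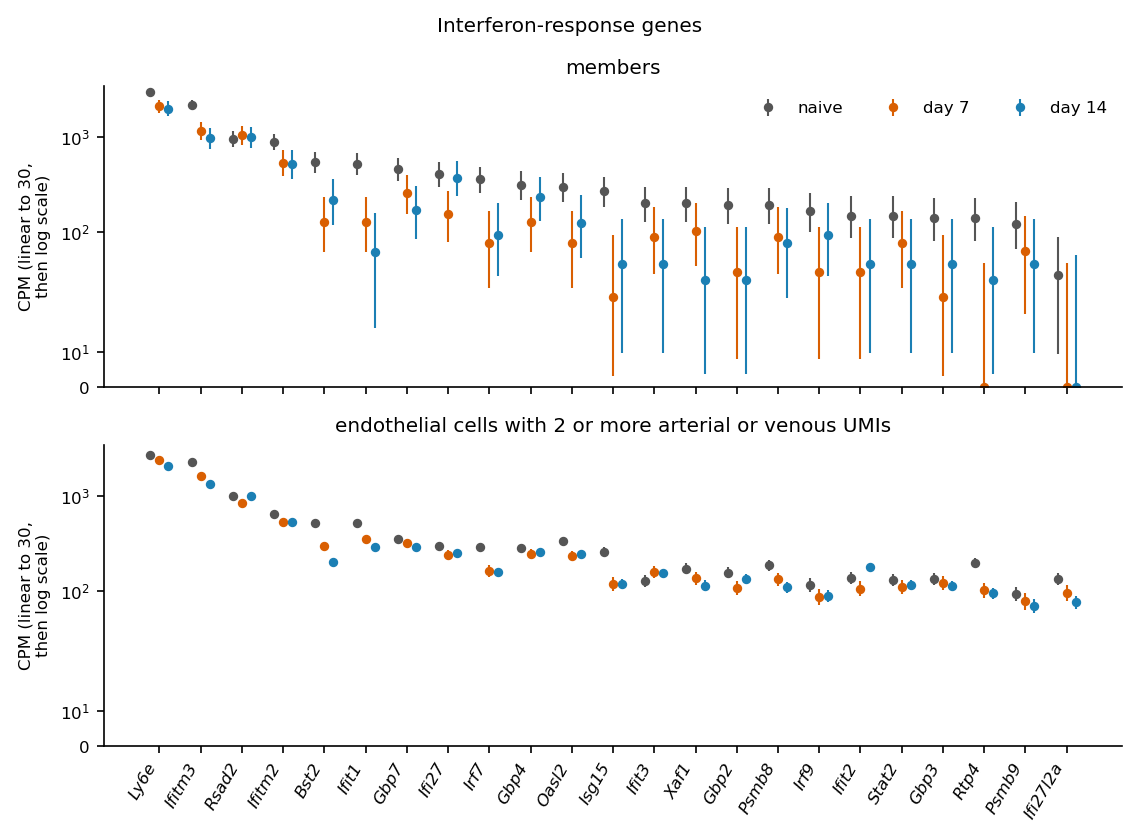
CPM (y axis, linear to 30 and then log scale) of 23 interferon-response genes, ordered by its level in naive members, in members (top) and in endothelial cells with 2 or more arterial or venous UMIs (bottom), with exact Poisson 95% intervals. In members most day 7 and day 14 points lie below the naive point, as for Ifit1 (525, 128 and 62.2 CPM), and Rsad2 does not follow (954, 1050 and 995 CPM).

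The single genes span the pathway. Isg15 (ENSMUSG00000035692), a ubiquitin-like protein conjugated to targets after interferon, had 31, 2 and 3 UMIs or 271, 25.6 and 46.7 CPM, with log2 ratios of -3.41 (-6.51 to -1.43) and -2.54 (-4.89 to -0.86). Ifit1 (ENSMUSG00000034459), which binds viral RNA, had 60, 10 and 4 UMIs in 18, 8 and 2 members, with log2 ratios of -2.04 (-3.17 to -1.06) and -3.08 (-5.00 to -1.65). By CPM both were highest in the naive library. An Ifit1 UMI was found in 40.9%, 38.1% and 8.70% of members, and in 29.2%, 28.6% and 11.1% after thinning to 2000 UMIs. For Isg15 the shares were 29.5%, 9.52% and 4.35%, and 41.7%, 7.14% and 5.56% after thinning. Irf7, a transcription factor that amplifies interferon production, had 41, 6 and 6 UMIs or 359, 76.8 and 93.3 CPM, with log2 ratios of -2.22 (-3.75 to -0.98) and -1.94 (-3.47 to -0.70). Bst2 (ENSMUSG00000046718), a tether of budding virus, had 62, 10 and 14 UMIs or 543, 128 and 218 CPM, with log2 ratios of -2.08 (-3.21 to -1.11) and -1.32 (-2.27 to -0.46). Both were again highest in naive members.

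The most abundant genes differed less. Ifitm3, a membrane protein that blocks viral entry, had 249, 91 and 63 UMIs, or 2180, 1165 and 980 CPM. Ly6e, a surface protein induced by interferon, supplied 27.5% of the list's UMIs and had 339, 165 and 129 UMIs, with log2 ratios of -0.49 (-0.77 to -0.22) and -0.56 (-0.87 to -0.27). Rsad2, an antiviral enzyme, had 109, 82 and 64 UMIs, or 954, 1050 and 995 CPM, and its log2 ratios of 0.14 (-0.29 to 0.56) and 0.06 (-0.41 to 0.52) had intervals that include 0. Thus 12 of the 24 listed genes were at least 2-fold lower at both times, and Ly6e and Rsad2 were among the others.

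A shared sequence was found in the promoters of some of these genes. The interferon-stimulated response element is read by interferon-activated transcription factors, and the letters searched were GAAA, any 2 bases and GAAA again, on either strand, over the 250 bases before to 50 bases after each RefSeq start (GRCm38.p6). It was found in 11 of the 18 listed interferon genes with a promoter in the table (61.1%) and in 1079 of all 27025 genes (3.99%). Among the 12 genes lower at both times, 6 of the 10 with a promoter (60%) held it. The 150 bases before the start are printed 5′ to 3′ on the gene's strand for the 3 genes lower at both times that held the element and had most naive UMIs, Bst2 (chr8:71537473-71537622, minus strand), Ifit1 (chr19:34640739-34640888, plus strand) and Isg15 (chr4:156200819-156200968, minus strand), with matches to the element in capitals and overlapping matches merged.
Bst2: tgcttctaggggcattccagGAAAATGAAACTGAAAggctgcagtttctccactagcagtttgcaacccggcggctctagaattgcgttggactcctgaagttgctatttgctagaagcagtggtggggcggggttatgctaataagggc
Ifit1: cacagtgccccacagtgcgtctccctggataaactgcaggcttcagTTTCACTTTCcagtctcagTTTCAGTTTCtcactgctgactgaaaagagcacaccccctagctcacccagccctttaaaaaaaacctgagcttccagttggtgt
Isg15: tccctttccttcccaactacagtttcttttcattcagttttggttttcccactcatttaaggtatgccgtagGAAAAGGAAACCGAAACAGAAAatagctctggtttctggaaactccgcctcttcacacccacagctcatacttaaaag
In these stretches the first match begins 130 bases before the start in Bst2, 104 in Ifit1 and 78 in Isg15, with 2, 2 and 3 matches. A match describes the letters only. No gene of the immediate early and heat shock list with a promoter (17 genes) held the element.

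Cell by cell, the interferon list made up a median of 91.5 UMIs per 10000 in naive members (lowest 13.0, highest 515). At day 7 the median was 61.9 (14.1 to 125) and at day 14 it was 59.8 (21.2 to 199). The libraries overlapped widely, and the naive library held the members with the highest values. In arteriovenous-gene cells the medians were 93.3, 78.0 and 69.5. The 2 members with most of these UMIs held 19.7%, 25.9% and 20.7% of the list's UMIs in the 3 libraries, and without them the summed levels were 10724, 6061 and 5723 CPM.

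The size of this difference depended on which endothelial cells were taken. With no limit on arterial and venous UMIs (279, 191 and 296 cells) the summed level was 11329, 8505 and 8078 CPM, with log2 ratios of -0.41 and -0.49. With the rule applied to cells thinned to 2000 UMIs (61, 42 and 62 members) it was 11714, 8495 and 7746 CPM, with log2 ratios of -0.46 and -0.60. The direction was the same in these sets, and the ratio was nearer to 0 than in the 88 members.

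**Figure D4:**
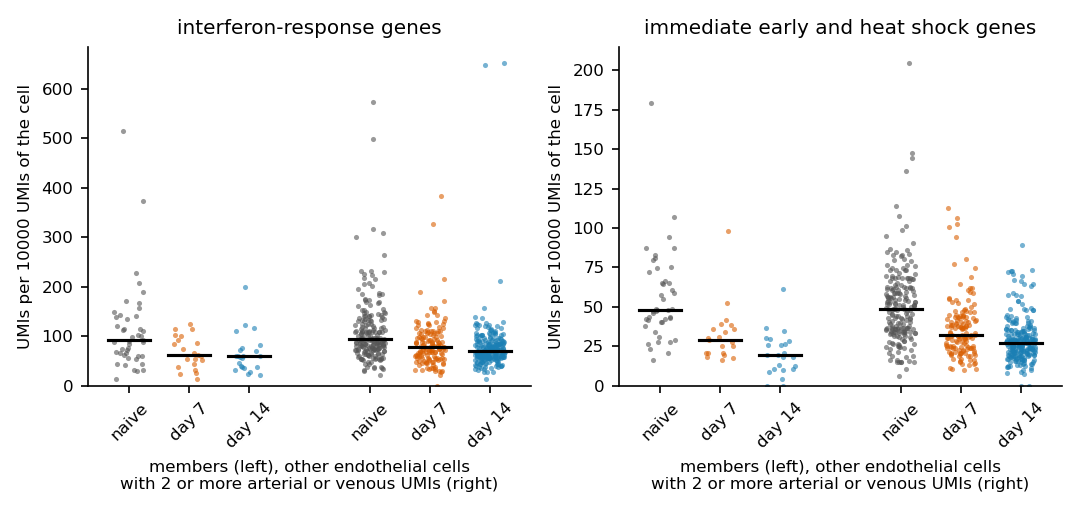
UMIs of the interferon-response list (left panel) and of the immediate early and heat shock list (right panel) per 10000 UMIs of the cell (y axis) for each member and each endothelial cell with 2 or more arterial or venous UMIs, by library, with the median as a bar. Member medians were 91.5, 61.9 and 59.8 for interferon genes and 48.1, 29.0 and 19.3 for the other list, with wide overlap between libraries.

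MHC class I genes, several of which are induced by interferon, were lower in sum. They reached 5401 CPM in naive members, 3303 at day 7 and 3873 at day 14, with log2 ratios of -0.71 (-0.92 to -0.50) and -0.48 (-0.70 to -0.27). Without the members with 5 or more Fabp7 UMIs the day 7 ratio was -0.49. Of 10 tested genes, 4 were at least 2-fold lower at day 7 and 0 at day 14, against 12.3% and 14.4% of all tested genes. B2m, the light chain of class I molecules, had 185, 70 and 55 UMIs, with log2 ratios of -0.85 (-1.27 to -0.45) and -0.92 (-1.38 to -0.48). Arteriovenous-gene cells had ratios of -0.37 at both times. MHC class II genes had 1, 3 and 3 UMIs in all. Of 11 tested genes for leukocyte adhesion and inflammatory activation, 1 was higher and 2 lower at day 7 and 1 higher and 1 lower at day 14, and Icam1 and Sele, the adhesion molecules of inflamed endothelium, had 0 UMIs in all 3 libraries.

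Cells switch on immediate early and heat shock genes within minutes of stress and also during tissue dissociation. As a sum, this list was lower in the members of both injured libraries. The genes named in the next paragraph are all heat shock genes. Immediate early genes were not summed apart, so the sum gives no separate reading of them. The summed level of the whole list was 5471, 2893 and 2240 CPM (625, 226 and 144 UMIs), with log2 ratios of -0.92 (-1.15 to -0.70) and -1.29 (-1.56 to -1.03). In arteriovenous-gene cells the ratios were -0.50 and -0.70, and in Schwann-type cells -0.24 and -0.17. Of 15 tested genes, 0 were higher and 6 lower at day 7, and 1 was higher and 7 lower at day 14. Of all tested genes 12.7% were higher and 12.3% lower at day 7, and 13.1% and 14.4% at day 14. With no limit on arterial and venous UMIs, the log2 ratios were -0.53 and -0.73.

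Hspa8, the constitutive form of a heat shock chaperone, supplied 43.7% of the list's UMIs and had 273, 107 and 55 UMIs, or 2390, 1370 and 855 CPM. Its log2 ratio was -0.80 (-1.14 to -0.48) at day 7 and -1.48 (-1.93 to -1.06) at day 14. Hsp90aa1, the inducible form of another chaperone, had 78, 17 and 7 UMIs, and Hspb1, a small heat shock protein, had 128, 49 and 29. All 3 followed the same order, naive above day 7 above day 14. The inducible genes Hspa1a and Hspa1b had 14, 0 and 0 and 27, 1 and 0 UMIs. Set against a floor of 3 UMIs, Hspa1b was at least 5.07-fold lower at day 14, and Hspa1a at least 3.19-fold lower at day 7 and 2.63-fold at day 14, and near-identical coding sequences leave the split of reads between these genes uncertain.

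Glucocorticoid-induced genes were led by metallothioneins, metal-binding proteins that also respond to stress, and Mt1 alone supplied 55.5% of the list's UMIs. Mt1 had 649, 256 and 127 UMIs, or 5681, 3277 and 1975 CPM, with log2 ratios of -0.79 (-1.01 to -0.58) and -1.52 (-1.81 to -1.25). Mt2 had 194, 80 and 39 UMIs, with log2 ratios of -0.73 (-1.12 to -0.35) and -1.49 (-2.02 to -0.98). Both were highest in the naive and lowest in the day 14 library, and so they were in arteriovenous-gene cells, where Mt1 had ratios of -0.83 and -1.11. Sgk1, a kinase induced by corticosteroids, had 49, 11 and 18 UMIs, and Tsc22d3, which encodes the glucocorticoid-induced leucine zipper, had 55, 11 and 23, both lowest at day 7. Of the 13 tested genes, 3 were higher and 2 lower at day 7, and 2 were higher and 4 lower at day 14. Their median log2 ratios were -0.24 and -0.51. The background shares over all tested genes were 12.7% higher and 12.3% lower at day 7, and 13.1% and 14.4% at day 14. The genes named above were all lower by CPM in both injured libraries, so they do not stand for the whole list. The letters ACANNNTGT, a glucocorticoid element read the same on both strands, were found in the promoters of 5 of the 12 listed genes that had one in the table (41.7%) and in those of 7.90% of all genes.

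Circadian clock genes were higher in sum at day 7, with a log2 ratio of 0.37 (0.07 to 0.66), and at day 14 the ratio was 0.20 (-0.12 to 0.52). Dbp, a clock output transcription factor, had 13, 17 and 19 UMIs, with log2 ratios of 0.94 (-0.19 to 2.10) and 1.38 (0.28 to 2.52). The ratio of the list in arteriovenous-gene cells was 0.36 and 0.38, close to that of members. Schwann-type cells had 0.50 and 0.59, and all cells other than members 0.33 and 0.41, so higher sums were also found outside the endothelium. Promoters of 5 of 15 clock genes (33.3%) held the E-box CACGTG, against 8.09% of all genes, and 1 held the D-box, TTATGTAA or TTACGTAA, against 1.23%.

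**Figure D5:**
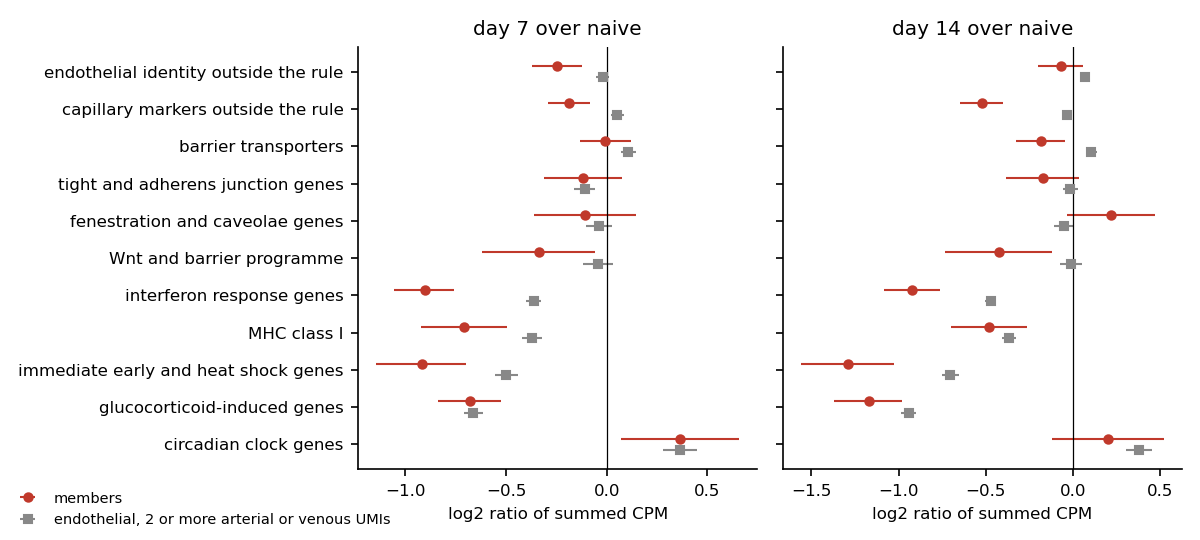
Log2 ratio of summed CPM (x axis) of day 7 (left) and day 14 (right) over naive for 11 gene lists, in members (circles) and in endothelial cells with 2 or more arterial or venous UMIs (squares), with exact conditional binomial 95% intervals that cover counting error only. The sums of the interferon, MHC class I, heat shock and glucocorticoid-induced lists (the last mostly Mt1) lie below 0 in both populations, and capillary markers outside the rule lie at -0.19 and -0.52 in members against 0.05 and -0.04 in the other cells.

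Several other programmes showed small differences or too few UMIs to compare. Glycolysis and hypoxia genes had summed log2 ratios of -0.06 and -0.11, with 12 tested genes of which 1 was higher and 1 lower at day 7 and 0 higher and 1 lower at day 14. Basement membrane and matrix genes had ratios of -0.20 and -0.19, with 1 higher and 2 lower of 16 at day 7 and 2 higher and 1 lower at day 14. Igfbp3, a binding protein of insulin-like growth factors, had 7, 1 and 47 UMIs, but 45 of the 47 came from 1 member. Fn1, fibronectin, had 11, 0 and 2 UMIs. Cell cycle genes had 21, 22 and 21 UMIs, and the proliferation genes Mki67 and Top2a had 0, so dividing members were not detectable at this depth.

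Transcripts of other cell types were present in members and differed between libraries. Satellite glial markers had 5, 74 and 12 UMIs, or 43.8, 947 and 187 CPM, and Schwann markers had 38, 119 and 28 UMIs, or 333, 1524 and 435 CPM. At day 7, 2 members (6210 and 10146 UMIs) held 93.2% of the satellite glial UMIs, and a doublet caller, Scrublet, marked both. Without the 2 members highest in each list, satellite glial markers were at 27.2, 81.0 and 142 CPM, still lowest in naive members. These values rest on only 3, 5 and 8 UMIs. Schwann markers were at 284, 372 and 384 CPM (30, 23 and 21 UMIs). Neuron markers had 6, 13 and 38 UMIs, of which 27 at day 14 lay in 1 member. Without the 2 members highest in this list they were at 37.4, 126 and 152 CPM, still lowest in naive members but on only 4, 8 and 9 UMIs. All 4 tested neuron genes were at least 2-fold higher at both times, against 12.7% and 13.1% of all tested genes. Pericyte markers had 1, 2 and 2 UMIs with Pdgfrb and Vtn at 0, smooth muscle markers 5, 4 and 4, macrophage markers 0, 1 and 3, fibroblast markers 7, 13 and 8, erythrocyte genes 9, 6 and 3, and lymphocyte and neutrophil markers 0. Without the members holding 5 or more Fabp7 UMIs, the day 7 log2 ratio of the interferon list was -0.68.

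Several of the genes highest at day 7 were glial genes held mostly by these 2 cells. By log2 ratio the leading genes included Tmod2, Fabp7, Ednrb, Gatm, Pcdh10, Pmepa1, Hspa12a and Maf. Fabp7, a fatty acid binding protein of satellite glia, had 3, 48 and 8 UMIs, and at day 7 it was at 615 CPM with the 2 members and 48.6 CPM without them. Apoe, a lipid carrier of glia, was at 2663 and 356 CPM in the same comparison. Without the 2 members Tmod2 kept 3 of its 24 UMIs at day 7 and Gatm 0 of 31.

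Genes lowest at day 7 included Slc52a3, Igtp, Rtp4, Hspa1a, Hspa1b, Fn1, Ints3, Rps6ka2 and Usp18. Slc52a3, a riboflavin transporter, had 22, 0 and 5 UMIs in members and was at least 5.01-fold lower at day 7. Igtp, an interferon-induced GTPase, had 19, 0 and 3 UMIs and was at least 4.33-fold lower. Rtp4, an interferon-induced protein, had 16, 0 and 2 and was at least 3.65-fold lower, and Usp18, which removes Isg15 from its targets, had 11, 0 and 1. Igtp, Rtp4 and Usp18 are thus interferon-induced genes, of which the list above held Rtp4.

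At day 14 the leading higher genes were Uchl1, Rgs4, Igfbp3, Ctdspl, Mtx3, Ocel1, Ola1, Slc17a5, Trim23 and AW209491. Apart from Igfbp3 they had 5 to 8 UMIs at day 14 against 0 in naive members. Uchl1, a neuronal ubiquitin hydrolase, had 0, 1 and 8 UMIs, 5 of them in 1 member. The leading lower genes were Hspa1b, Adar, Ankrd33b, Hspa1a, Trim26, Pde7a, Clcn4, Gm4951, Rps6ka2 and Ncln, with 10 to 27 naive UMIs against 0 at day 14. Adar, an RNA-editing enzyme with an interferon-induced form, had 15 UMIs in 12 naive members. Over both times, the genes with the largest consistent ratios were Ctdspl, Hoxb3, Trim23, Nmt2, Baz1a, Eri1, Ola1, Gm2000, Kif21a and Mrpl45 (higher) and Hspa1a, Hspa1b, Rps6ka2, Fam207a, Rufy3, Acsl4, Enpp5, Fuca2, Gipc3 and Gpn3 (lower). The higher set had 0 naive UMIs against 3 to 7 at each time, and the lower set had 6 to 27 naive UMIs against 0 or 1, so that the ratios of both depend on the pseudocount. The counting interval of the plain ratio included 0 at 1 or both times for 6 of the 10 higher genes and 7 of the 10 lower genes.

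Over the whole table, 802 of the 6335 genes were at least 2-fold higher and 781 lower at day 7, and 829 higher and 911 lower at day 14. In both injured libraries 343 were higher and 237 lower, and these comparisons share the naive library. The tested genes had a median of 12 UMIs over the naive and injured members. Among genes with at least 30 UMIs over the libraries compared, 23 were higher and 56 lower of 1164 at day 7, and 29 higher and 67 lower of 1091 at day 14. With no limit on arterial and venous UMIs, and hence several times as many cells, 20 were higher and 14 lower at day 7 and 13 higher and 33 lower at day 14.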

How the data were processed

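As deposited, the values are raw UMI counts of each gene in each barcode, made by the authors with Cell Ranger 3.0.2 on mm10 according to the submitters' processing notes, for 3 libraries of 3748, 3281 and 4908 barcodes (23107376, 22343246 and 36550911 UMIs). These counts were the start. The members, gene lists and comparisons were chosen with earlier results of these data known. Member UMIs were summed per library and divided by the library's member total (counts per 1000000 UMIs, CPM), and 2-fold counts and list medians were taken on log2(CPM + 10), and ratios printed with intervals on plain CPM, for genes with a UMI in at least 10% of members of a library. With 1 library per condition no edgeR or DESeq2 test was run, and these packages (4.0.16, 1.42.0, in R 4.3.3) gave only the alternative scalings, TMM and size factors. Exact Poisson, Clopper-Pearson and conditional binomial intervals (95%) were computed in Python 3.11.15 with scipy 1.17.1, and the ratio code was tested on simulated data. Named genes were the 10 highest and 10 lowest per time by log2 ratio, the 10 most consistent in each direction over both times (ties by name), and the 20 leading genes of members over all other cells, leaving out genes of the rule, and a few genes so chosen are not reported here. Doublets were kept in the main values, and Scrublet (scanpy 1.11.5), run as an alternative, marked 90 of 9662 cells (0.931%) and 4 of 88 members. Promoters came from RefSeq, build GRCm38.p6.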

Additional observations from a re-analysis of the deposited data

How the results depend on the processing

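No paired analysis was possible because naive, day 7 and day 14 are single libraries. Of 21 alternatives, 4 were chosen after seeing the data: leaving out members with 5 or more Fabp7 UMIs, no limit on the arterial and venous genes, at least 30 UMIs per gene over both libraries, and leaving out each library's member highest in interferon UMIs per 10000. Over all settings, 848 of 955 list ratios stayed within their counting interval and on their side of 0, and 974 of 1088 ratios of the named genes reported here did. The interferon list ranged from -0.91 to -0.41 at day 7 and from -1.11 to -0.49 at day 14, and the immediate early and heat shock list from -0.96 to -0.53 and from -1.47 to -0.73. No scaling moved the median of all genes by more than 0.1 on the log2 scale. The few UMIs of each gene limit every single ratio.

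The member share of cells in the naive, day 7 and day 14 libraries moved to 2.46%, 1.20% and 0.954% under a filter of 1000 genes and 10% mitochondrial UMIs, to 2.57%, 1.83% and 1.57% with at most 1 arterial or venous UMI, to 2.62%, 1.83% and 1.83% with the rule on cells thinned to 2000 UMIs, and to 8.85%, 7.12% and 7.73% with no limit on these genes. Naive stayed highest in each.

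Counts of genes at least 2-fold apart followed the filters and the number of cells. At day 7 the 802 higher and 781 lower genes became 427 and 326 with at most 1 arterial or venous UMI, 297 and 179 with thinned cells, 172 and 189 with a pseudocount of 50 CPM, 372 and 364 for genes detected in 20% of members or more, 1939 and 1386 with no filter on low values, 20 and 14 with no limit on arterial and venous genes, and 23 and 56 with at least 30 UMIs. The lower genes alone became 1184 under the filter of 1000 genes and 10% mitochondrial UMIs and 1278 with 0 UMIs of mural, neuron and Schwann genes. At day 14 the 829 higher and 911 lower genes became 357 and 385, 262 and 148, 181 and 233, 374 and 413, 1943 and 1617, 13 and 33, and 29 and 67 in the same order of settings, and the higher genes alone became 1273 for genes detected in 5% of members or more.

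These log2 ratios changed sign. With no limit on arterial and venous genes, at day 7 Baz1a was at -0.11, Enpp5 at 0.30, Eri1 at -0.26, Fn1 at 0.90, Nmt2 at -0.19, Ola1 at -0.18, Trim23 at -0.30 and the pericyte list at -0.046. At day 14 under that setting Acsl4 was at 0.24, Clcn4 at 0.084, Enpp5 at 0.12, Gm2000 at -0.11, Igfbp3 at -0.67, Rufy3 at 0.28, Trim23 at -0.18 and Trim26 at 0.00011. With thinned cells Eri1 was at -0.46 and Ola1 at -0.080 at day 7, and Acsl4 at 0.51, Baz1a at -0.14, Ola1 at -0.0083, Rufy3 at 0.0042 and Trim26 at 0.075 at day 14. With at most 1 arterial or venous UMI, Fuca2 was at 0.0066 at day 7. At day 7 Gatm and the fibroblast list were at -1.59 and -0.33 under the filter of 1000 genes and 10% mitochondrial UMIs, at -1.47 and -0.34 without Scrublet calls, at -1.59 and -0.63 with 0 UMIs of mural, neuron and Schwann genes, and at -1.46 and -0.33 without members with 5 or more Fabp7 UMIs. Each of these 4 settings leaves out both day 7 members rich in glial RNA. The fibroblast list at day 14 was at -0.63 under the filter of 1000 genes and 10% mitochondrial UMIs. The cause of these sign changes was otherwise not tested.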
